A study of Homo sapiens with 6 samples.

Results

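The genes described here are 48 interferon-stimulated genes, sensors of foreign nucleic acid and regulators of the interferon response, out of 58735 genes in the deposited expression table. They were taken from the table by gene symbol, with no threshold on measured values, and all 48 symbols were found. The list was drawn up with earlier results of these data known, so counts set against all genes below are descriptions, not tests. The OAS genes and the antigen presentation genes were left out of the set. RNA-seq was performed 72 h after transfection of MM.1S, a cell line established from human multiple myeloma, with 100 nM siRNA by a lipid reagent. The control group (3 libraries) received a negative control siRNA, si-NC, and the PRMT1 KD group (3 libraries) received si-PRMT1, so both groups carried a transfected double-stranded RNA. The sources do not name which of the study's PRMT1 siRNAs was sequenced, and no untransfected or interferon-treated MM.1S cells were analysed here. The study's methods call its biological replicates dependent and do not say whether the 3 libraries of a group came from separate cultures, so that p-values measure the spread between these libraries, which may be technical.

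Type I interferons bind the receptor IFNAR1-IFNAR2, whose kinases TYK2 and JAK1 phosphorylate STAT proteins, STAT2 among them. STAT2 and IRF9 are components of ISGF3, the factor that binds the interferon-stimulated response element (ISRE) in the promoters of interferon-stimulated genes, and a further element of interferon-responsive promoters is the gamma-activated sequence (GAS). RNA sensors of the RIG-I family signal through MAVS, and DNA sensing passes through STING (TMEM173), and both lead to IRF3 and IRF7, which switch on the interferon genes. Many of the induced proteins bind viral RNA, restrict viral entry or attach the ubiquitin-like protein ISG15 to other proteins.

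The libraries held 14439217 to 16465026 reads on genes. Expression is given in FPKM (reads per gene, corrected for gene length and library size, as deposited). Levels can be compared between genes only as far as the deposited gene lengths fit the transcripts expressed, which was not examined. That length was 941 bases for ISG15 and 7363 bases for ISG20, for example. Fold changes, PRMT1 KD minus control, come from limma and are differences of log2(FPKM + 1). A gene is called changed at a Benjamini-Hochberg adjusted p under 0.05. PRMT1 itself was 61.7, 62.8 and 59.0 FPKM in the control libraries and 13.3, 14.02 and 12.5 FPKM in the PRMT1 KD libraries. Correlation between libraries across the genes tested was 0.981 to 0.984 within control, 0.98 to 0.983 within PRMT1 KD and 0.974 to 0.979 between the groups, and no library stood apart. All 8 plasma cell markers examined reached 1 FPKM, with a summed level of 857.9 to 873.9 FPKM in control and 832.6 to 878.8 FPKM in PRMT1 KD. Among them SLAMF7 was called lower, with a mean of 38.0 FPKM in control and 23.8 FPKM in PRMT1 KD (log2 fold change -0.65, limma adjusted p = 0.00515), PRDM1 and XBP1 were lower and CD38 and MZB1 higher without overlap and without passing the test, and the part of these markers in the results below was not tested. None of the 5 monocyte and macrophage markers reached 1 FPKM (summed level at most 0.154 FPKM in any library). Of the 4 dendritic cell markers only CLEC9A reached 1 FPKM, with means of 1.15 FPKM in control and 1.56 FPKM in PRMT1 KD. Of the 4 B cell markers only PAX5 did, with means of 1.11 and 1.02 FPKM, and the groups overlapped in both genes. Of the 5 T cell markers, CD3E and CD3G reached 1 FPKM while CD2 had at most 1 read in any library and CD3D had 13, 11 and 7 reads in control and 5, 0 and 1 reads in PRMT1 KD, and their summed level was 35.9 to 39.4 FPKM in control and 39.9 to 42.6 FPKM in PRMT1 KD. The part of that difference in the results below was not tested.

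The promoters of these genes are shown first, because they carry the sequences through which interferon acts. RefSeq promoter windows on GRCh38.p14, 250 bases before to 50 bases after each transcription start, were found for 36 of the 48 genes (35 by symbol and DDX58 by an older symbol), and 12 of the 36 had several starts. The ISRE core (GAAA, any 2 bases, GAAA), searched on both strands, was present in 21 of the 36 genes (58.3%), compared with 1195 of the 27305 genes of the promoter table (4.38%). The GAS core (TTC, any 3 bases, GAA), which reads the same on both strands, was present in 8 of the 36 (22.2%), compared with 2560 of all 27305 (9.38%). Both cores were found in 5 of the 36 genes (13.9%) and in 190 of all genes (0.696%), and in 4 of those 5 an ISRE core overlapped a GAS core. A match is a run of letters in this window and says nothing about binding of a factor, and a gene without one only lacks these letters here.

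The 41 ISRE cores of these genes lay close to the start. Their first bases were between 196 bases before and 23 bases after it, and 38 of the 41 began upstream. In the GENCODE annotation of the same genes, 18 cores lay upstream of every transcript, 8 in an intron and 15 in an exon of some transcript of the gene. These counts are per gene, so the core that PARP9 and DTX3L share is counted for each. It lies in an intron of PARP9 and in an exon of DTX3L. The windows below show 1 core each for the 9 tested genes in which a core was present and the 3 PRMT1 KD libraries lay wholly on one side of the 3 control libraries, and for 3 others that the text returns to. Each is read 5′ to 3′ along the gene's strand, with the core in capitals and 10 flanking bases on each side.
ISG15: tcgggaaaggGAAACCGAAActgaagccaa
IFITM1: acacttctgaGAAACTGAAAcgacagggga
ISG20: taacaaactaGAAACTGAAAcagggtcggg
IFI27: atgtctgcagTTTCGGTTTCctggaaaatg
TRIM21: cttctgagcgGAAACTGAAAgtgaaatagg
EIF2AK2: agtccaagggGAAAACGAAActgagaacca
PARP14: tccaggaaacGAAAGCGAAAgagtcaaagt
IFIH1: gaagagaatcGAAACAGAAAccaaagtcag
BST2: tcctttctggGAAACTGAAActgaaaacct
DTX3L: ccagggaagcGAAACTGAAActttgcgccc
IFITM3: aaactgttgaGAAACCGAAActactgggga
MX1: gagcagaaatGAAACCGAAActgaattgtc

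The ISG15 core printed is chr1:1013390-1013399 on the plus strand, 107 bases before the RefSeq start, inside an intron of the longer ISG15 transcripts. A further core overlaps it and begins 113 bases before the start (chr1:1013384-1013393). The IFITM1 core printed, chr11:314034-314043, spans the start itself and lies in an exon, and another begins 40 bases before the start (chr11:314000-314009). In IFI27 the core printed is on the other strand, so that it appears as TTTCGGTTTC at chr14:94110628-94110637, in an intron. A further IFI27 core lies on the gene's own strand at chr14:94110641-94110650, also in an intron. The PARP9 and DTX3L genes are transcribed away from each other and share a single core, chr3:122564332-122564341, which begins 6 bases before the DTX3L start and 41 bases before that of PARP9. The same core, GAAACTGAAA, is printed for IFITM1, ISG20 and TRIM21, whose PRMT1 KD libraries were all below the control libraries, and for BST2, whose PRMT1 KD libraries were all above them. It is also printed for DTX3L, whose groups overlapped. The plot of motif positions gives all cores of the 24 genes with at least 1 core of either kind.

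**Figure D1:**
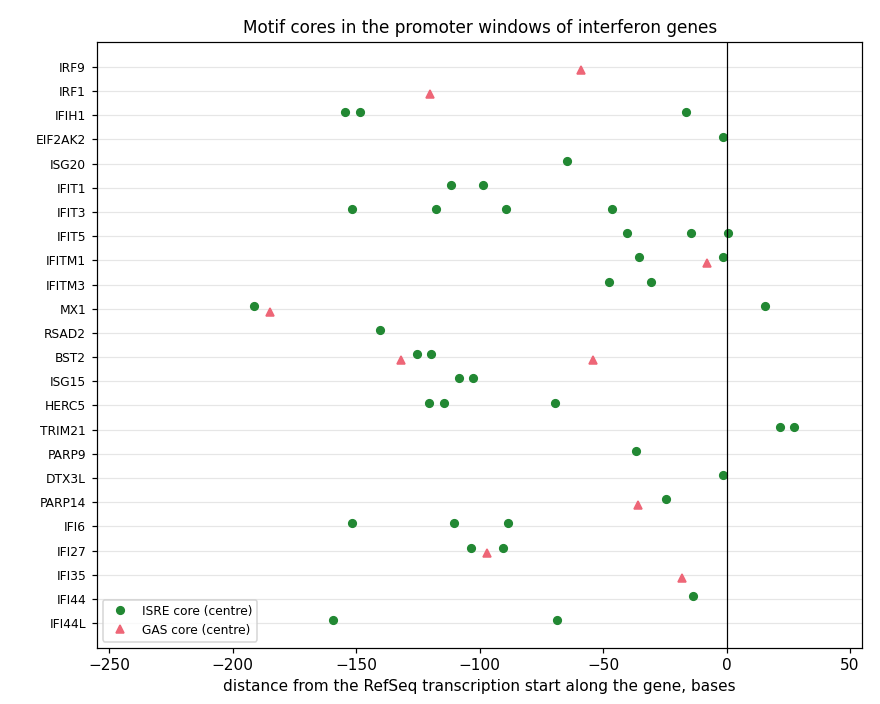
Position of each ISRE core (circles) and GAS core (triangles) in the promoter windows, as the distance in bases of the core's centre from the RefSeq transcription start along the gene, 1 row per gene. Most cores sit within 160 bases upstream of the start, and TRIM21 is the gene whose ISRE cores both lie downstream of it.

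Of the 48 genes, 32 had a mean of at least 1 FPKM over the 6 libraries and were tested, and none of the 32 passed this filter only through its higher group. Silencing of PRMT1 was followed by a lower level of 2 of them, ISG15 and IFITM1, and 0 were called higher by limma. Across all 13585 genes tested, 279 were called (2.05%), 134 lower (0.986%) and 145 higher (1.07%). That split moved with the scaling, to 131 lower and 227 higher when each library was rescaled to TPM and to 139 lower and 82 higher with median scaling. An unadjusted p under 0.05 was found for 12 of the 32 genes, 8 lower and 4 higher, compared with 19.5% of all genes tested, 9.47% lower and 10.1% higher. The libraries of the groups did not overlap in 16 of the 32 genes, 12 lower and 4 higher in PRMT1 KD, compared with 25.9% of all genes, 12.3% lower and 13.6% higher. The median log2 fold change was -0.042 over the 32 genes, with 22 below 0 and 10 above 0 (19 and 13 after rescaling to TPM), and 0.0095 over all genes tested. Most differences were small, and 16 of the 32 genes lay within 0.1 of 0 on the log2 scale. The median was -0.10 over the 13 tested genes with an ISRE core, which included both called genes. It was -0.063 over the 13 tested genes with a promoter window and no core, none of which was called. In each set 9 genes were below 0 and 4 above 0. An unadjusted limma p under 0.05 was found for 8 with a core (5 lower, 3 higher) and 4 without (3 lower, 1 higher). The groups did not overlap in 9 with a core (6 lower, 3 higher) and 7 without (6 lower, 1 higher). The difference between the sets was not tested.

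**Figure D2:**
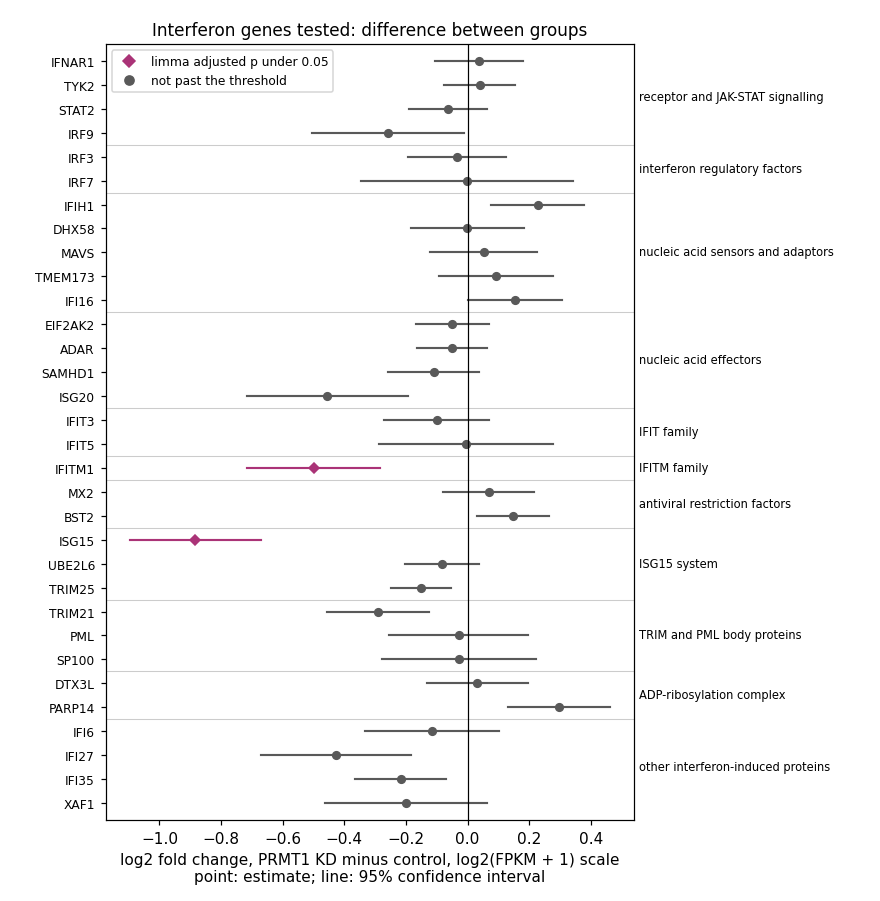
Log2 fold change (x axis, PRMT1 KD minus control, log2(FPKM + 1) scale) of the 32 tested genes, grouped by role, as the estimate (point) with its 95% confidence interval (line). ISG15 and IFITM1 (diamonds) were called changed and lie farthest to the left, at -0.88 and -0.50.

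**Figure D3:**
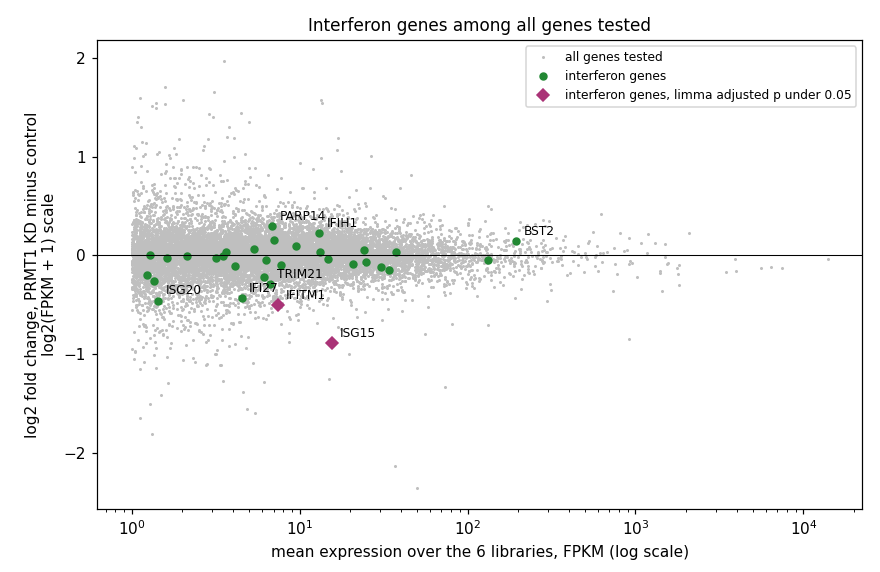
Log2 fold change (y axis) against mean FPKM over the 6 libraries (x axis, log scale) for the 13585 genes tested (grey), with the 32 interferon genes in colour and 8 of them labelled. Most of the coloured points lie within the grey cloud, and ISG15 lies below nearly all genes of a like level.

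ISG15, the ubiquitin-like protein that is attached to target proteins during the interferon response, had the largest log2 fold change of the 32 tested genes. Its level (ENSG00000187608, chr1:1001138-1014540, plus strand) was 21.5, 19.0 and 21.4 FPKM in the control libraries and 9.40, 11.8 and 11.02 FPKM in the PRMT1 KD libraries. All 3 PRMT1 KD libraries lay well below all 3 control libraries. In control cells the mean was 20.6 ± 1.43 FPKM (SD, n = 3), and after silencing it fell to 10.7 ± 1.23 FPKM (SD, n = 3), or 52.1% of control. On the log2 scale ISG15 fell by 0.88 (standard error 0.090, 95% confidence interval -1.10 to -0.67), with a limma adjusted p of 0.0144, and this was the 45th lowest of the 13585 values. In bulk RNA, fewer cells with the transcript and less transcript per cell cannot be told apart. The values rest on 288 to 335 reads in control and 146 to 160 reads in PRMT1 KD, and the 2 genes that overlap ISG15 had 0 reads in every library. The adjusted p was 0.096 without control replicate 1, 0.0521 without PRMT1 KD replicate 3 and 0.0537 without a filter on low values, and the log2 fold change stayed between -0.95 and -0.80 in the 15 alternatives run.

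Neither of the tested enzymes linked to ISG15 was called (1 of them had an unadjusted limma p under 0.05). UBE2L6, the conjugating enzyme of the ISG15 pathway, was 22.2, 20.8 and 21.0 FPKM in control and 20.7, 20.3 and 19.2 FPKM in PRMT1 KD. The difference was -0.083 on the log2 scale (95% confidence interval -0.20 to 0.038, limma adjusted p = 0.428). TRIM25, a ubiquitin ligase for RIG-I that is also described as an ISG15 ligase, was 36.2, 35.3 and 35.8 FPKM in control and 32.4, 32.8 and 31.3 FPKM in PRMT1 KD. The groups did not overlap, but the log2 fold change of -0.15 did not pass the test (limma adjusted p = 0.115). TRIM25 overlaps DGKE on the opposite strand, which had 1068 to 1378 reads, and whether counting used strand is not given in the sources used here. The activating enzyme UBA7, the ligase HERC5 and USP18, the protease that removes ISG15 and dampens receptor signalling, were below 1 FPKM on average in both groups and were not tested. HERC5 had at most 4 reads in any library.

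IFITM1, a membrane protein that restricts the entry of enveloped viruses, was the other gene called. Its level (ENSG00000185885, chr11:313506-315272, plus strand) was 9.62, 8.38 and 8.57 FPKM in the control libraries and 6.62, 5.21 and 6.14 FPKM in the PRMT1 KD libraries. The highest PRMT1 KD library stayed below the lowest control library. The control mean of 8.86 ± 0.665 FPKM (SD, n = 3) fell to 5.99 ± 0.716 FPKM (SD, n = 3), 67.6% of control, on 146 to 172 reads in control and 81 to 118 reads in PRMT1 KD. This was a log2 fold change of -0.50 with a standard error of 0.0914 and, close to the threshold, a limma adjusted p of 0.0487. It did not pass the test in 9 of 15 alternatives, among them each of the 6 that left out a library, where the adjusted p was 0.0817 to 0.181, while the log2 fold change stayed between -0.56 and -0.42. IFITM2 and IFITM3, its close relatives in the same cluster on chromosome 11, were nearly silent. IFITM2 had 0 to 6 reads and IFITM3 had 4 to 22 reads per library, although IFITM3 carries 2 ISRE cores in its promoter window. These genes are similar in sequence and IFITM1 lies within the annotated span of IFITM2, so that reads shared between them are uncertain.

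**Figure D4:**
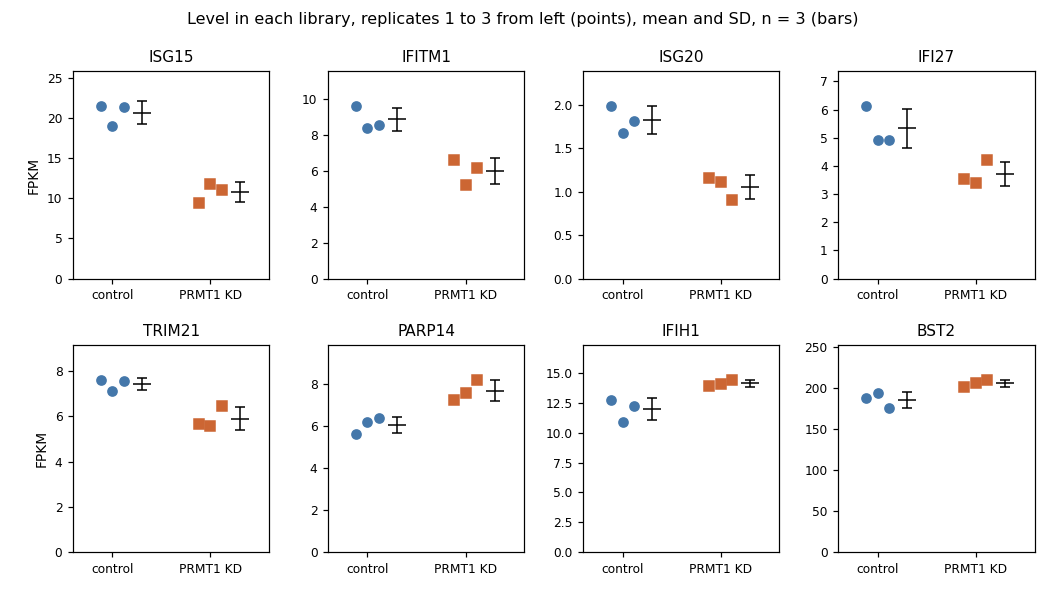
FPKM (y axis, from 0) in each library of 8 interferon genes, with control libraries as circles and PRMT1 KD libraries as squares, replicates 1 to 3 from the left, and the mean with its SD (n = 3) as bars. In each of the 8 genes the groups do not overlap. ISG15, IFITM1, ISG20, IFI27 and TRIM21 are lower and PARP14, IFIH1 and BST2 are higher in PRMT1 KD, and only ISG15 and IFITM1 passed the test.

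None of the 4 tested receptor and signalling genes was called (1 had an unadjusted limma p under 0.05). IFNAR1, the first receptor chain, was 12.3, 12.9 and 13.96 FPKM in control and 13.0, 13.3 and 13.9 FPKM in PRMT1 KD, with a log2 fold change of 0.038 (95% confidence interval -0.10 to 0.18). The other chain, IFNAR2, had a mean of 0.825 FPKM in control and 0.979 FPKM in PRMT1 KD (57 to 78 reads per library), under the filter. TYK2, the kinase bound to IFNAR1, was 36.5 to 37.5 FPKM in control and 36.2 to 39.9 FPKM in PRMT1 KD. STAT2, the STAT found only in ISGF3-type complexes, was 25.3, 27.1 and 24.4 FPKM in control and 25.1, 24.3 and 23.8 FPKM in PRMT1 KD. For both, the 95% confidence interval of the log2 fold change included 0, being -0.075 to 0.15 for TYK2 and -0.19 to 0.063 for STAT2. IRF9, the DNA-binding subunit of ISGF3, was the low component, at 1.72, 1.46 and 1.52 FPKM in control and 1.197, 1.12 and 1.11 FPKM in PRMT1 KD. Its libraries did not overlap, on 89 to 108 reads against 61 to 75 reads. The log2 fold change of -0.26 did not pass the test (standard error 0.104, limma adjusted p = 0.237).

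Of the interferon regulatory factors, IRF3, which is present in resting cells and is activated by phosphorylation, was 16.0, 15.3 and 13.8 FPKM in control and 15.4, 13.95 and 14.6 FPKM in PRMT1 KD. IRF7, itself an interferon-induced gene, was far lower, at 1.47, 1.203 and 1.17 FPKM against 1.59, 1.37 and 0.924 FPKM. The groups overlapped in both genes. IRF1 had a control mean of 1.04 FPKM and a PRMT1 KD mean of 0.959 FPKM, and was under the filter over the 6 libraries. The 95% confidence interval of the log2 fold change was -0.19 to 0.12 for IRF3 and wider, -0.34 to 0.34, for IRF7, which had 37 to 69 reads per library.

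Among the sensors, 4 of the 5 tested genes had a log2 fold change above 0 (5 after rescaling to TPM), and none was called (2 had an unadjusted limma p under 0.05). IFIH1 (MDA5), which binds long double-stranded RNA, was 12.7, 10.9 and 12.2 FPKM in control and 13.9, 14.1 and 14.4 FPKM in PRMT1 KD. All PRMT1 KD libraries were above all control libraries, and the log2 fold change of 0.23 did not pass the test (standard error 0.0635, limma adjusted p = 0.120). IFI16, a nuclear DNA-binding protein of the same response, was 6.54, 6.28 and 6.93 FPKM in control and 7.56, 6.95 and 7.79 FPKM in PRMT1 KD, higher by 0.15 on the log2 scale (limma adjusted p = 0.250). Its groups were separated by the narrow gap between 6.93 and 6.95 FPKM. The other RNA sensor, DDX58 (RIG-I), was far lower than IFIH1, with a mean of 0.952 FPKM in control and 0.730 FPKM in PRMT1 KD. It had 48 to 86 reads per library and was under the filter. DHX58, the family member that lacks signalling domains, had the same mean of 3.52 FPKM in both groups, with a 95% confidence interval of -0.18 to 0.18. The adaptors MAVS (22.1 to 24.8 FPKM in control, 22.5 to 26.0 FPKM in PRMT1 KD) and TMEM173 (8.30 to 9.78 FPKM and 9.33 to 10.7 FPKM) overlapped between the groups.

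All 4 genes that act on nucleic acid had a log2 fold change below 0, and none was called (1 had an unadjusted limma p under 0.05). ISG20, an RNA exonuclease, was 1.99, 1.67 and 1.81 FPKM in control and 1.16, 1.11 and 0.901 FPKM in PRMT1 KD, so that its mean in PRMT1 KD was 58.1% of control. Every PRMT1 KD library was well below every control library, on 198 to 242 reads against 101 to 141 reads. On the log2(FPKM + 1) scale, which understates the change of low genes, the difference was -0.46 (standard error 0.111, limma adjusted p = 0.0915). limma's voom on reads worked back from FPKM gave -0.78 with an adjusted p of 0.00284, and called 6.82% of the 13585 genes. Adjusted p for ISG20 ranged from 0.00259 to 0.286 over its alternatives.

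SAMHD1, a phosphohydrolase that depletes deoxynucleotides, was 4.25, 4.56 and 4.17 FPKM in control and 3.89, 4.05 and 3.87 FPKM in PRMT1 KD. EIF2AK2 (PKR), the kinase that halts translation when it binds double-stranded RNA, was 6.46, 6.44 and 6.35 FPKM in control and 6.21, 6.16 and 6.12 FPKM in PRMT1 KD. Neither overlapped between groups, yet the differences were small, with log2 fold changes of -0.11 for SAMHD1 and -0.050 for EIF2AK2 (limma adjusted p = 0.389 and 0.625). EIF2AK2 overlaps GPATCH11 on the opposite strand, which had 433 to 585 reads. ADAR, the enzyme that edits adenosine in double-stranded RNA, was among the most highly expressed of these genes, at 136.4, 140.2 and 126.8 FPKM in control and 129.3, 131.9 and 128.2 FPKM in PRMT1 KD, and its groups overlapped.

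The IFIT genes lie together on chromosome 10 and encode proteins that bind the ends of foreign RNA, but their levels differed widely. IFIT3 was 7.62, 8.39 and 8.23 FPKM in control and 7.23, 6.999 and 8.21 FPKM in PRMT1 KD. IFIT5 was 2.29, 2.07 and 2.07 FPKM in control and 1.72, 2.13 and 2.60 FPKM in PRMT1 KD. The groups overlapped in both genes, with log2 fold changes of -0.10 and -0.0046. IFIT1 and IFIT2 were below the filter, with means of 0.317 and 0.589 FPKM in control and 0.380 and 0.561 FPKM in PRMT1 KD. IFIT3 overlaps LIPA on the opposite strand, which had 916 to 1073 reads. Overlaps of IFIT1, IFIT2 and IFIT5 with other genes were not examined, so that the levels of the IFIT genes relative to each other are uncertain.

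BST2 (tetherin), which holds budding virions at the cell surface, had the highest level of the 48 genes, at 187.5, 194.3 and 175.2 FPKM in control and 201.1, 205.4 and 210.0 FPKM in PRMT1 KD. The PRMT1 KD libraries were all higher, by a log2 fold change of 0.15 that did not pass the test (standard error 0.0497, limma adjusted p = 0.169). MX2, a dynamin-like protein that blocks nuclear entry of some viruses, was 5.49, 5.10 and 4.99 FPKM in control and 5.51, 5.71 and 5.27 FPKM in PRMT1 KD, with overlapping groups. Its neighbour MX1, a widely used sign of interferon exposure, was close to 0, with 2, 15 and 9 reads in control and 5, 0 and 6 reads in PRMT1 KD. The MX1 promoter window nevertheless holds the ISRE core printed above, GAAACCGAAA, with the same letters as that of ISG15. RSAD2 (viperin), which makes a chain-terminating nucleotide, had 1 to 6 reads in each library.

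Among the TRIM and PML body genes, TRIM21, a cytosolic antibody receptor and ubiquitin ligase, was 7.61, 7.10 and 7.53 FPKM in control and 5.65, 5.55 and 6.47 FPKM in PRMT1 KD. The groups did not overlap and the PRMT1 KD mean was 79.4% of control, but the log2 fold change of -0.29 did not pass the test (standard error 0.0698, limma adjusted p = 0.0891, range 0.0581 to 0.273 over 15 alternatives). PML, the scaffold of PML nuclear bodies, was 2.97 to 3.31 FPKM in control and 2.66 to 3.39 FPKM in PRMT1 KD. SP100, another constituent of these bodies, was 1.52 to 1.92 FPKM in control and 1.497 to 1.67 FPKM in PRMT1 KD. Their log2 fold changes were -0.029 and -0.028, with 95% confidence intervals reaching from -0.25 to 0.20 for PML and from -0.28 to 0.22 for SP100. TRIM22 had 4 to 22 reads per library.

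The ADP-ribosylation genes PARP9, DTX3L and PARP14 lie near each other on chromosome 3, and none was called (PARP14 had an unadjusted limma p under 0.05). PARP14, a mono-ADP-ribosyltransferase, was 5.63, 6.19 and 6.38 FPKM in control and 7.24, 7.59 and 8.21 FPKM in PRMT1 KD. It had the largest log2 fold change above 0 among the tested genes, 0.30 (standard error 0.0697), which did not pass the test (limma adjusted p = 0.0853). limma's voom on reads gave 0.34 with an adjusted p of 0.0114. DTX3L, a ubiquitin ligase that pairs with PARP9, was 3.49, 3.63 and 3.66 FPKM in control and 3.92, 3.73 and 3.45 FPKM in PRMT1 KD, and its groups overlapped. PARP9 was low, with 66, 68 and 38 reads in control and 24, 24 and 35 reads in PRMT1 KD, and was not tested. It was the single gene among the 16 below the filter in which the groups did not overlap, and limma's voom on genes with at least 10 reads on average, where 5.63% of 16301 genes were called, gave a log2 fold change of -0.92 (standard error 0.291, adjusted p = 0.0714). PARP9 and DTX3L overlap on opposite strands at the shared core printed above, and DTX3L had 308 to 380 reads.

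The remaining interferon-induced genes had log2 fold changes below 0 in all 4 tested, and none was called (2 had an unadjusted limma p under 0.05). IFI27, a small mitochondrial and nuclear envelope protein, was 6.13, 4.94 and 4.93 FPKM in control and 3.52, 3.40 and 4.20 FPKM in PRMT1 KD. The groups did not overlap, the PRMT1 KD mean was 69.5% of control, and the log2 fold change of -0.43 did not pass the test (standard error 0.103, limma adjusted p = 0.0909). On reads, limma's voom gave -0.52 with an adjusted p of 0.0142. IFI35, a protein that pairs with NMI, was 7.01, 6.22 and 6.78 FPKM in control and 5.80, 5.46 and 5.52 FPKM in PRMT1 KD, a difference of -0.22 on the log2 scale (limma adjusted p = 0.126). XAF1, a protein that opposes the apoptosis inhibitor XIAP, was 1.55, 1.28 and 1.35 FPKM in control and 1.19, 1.06 and 1.012 FPKM in PRMT1 KD, a difference of -0.20 on the log2 scale (limma adjusted p = 0.379). Neither gene overlapped between groups. IFI6, a mitochondrial and endoplasmic reticulum protein with 3 ISRE cores in its window, was 33.8, 33.2 and 28.3 FPKM in control and 32.6, 28.3 and 26.9 FPKM in PRMT1 KD, and its groups overlapped. IFI44 had 16 to 27 reads per library, and IFI44L, the lowest of the 48 genes, had 2 reads in 1 control library, 1 read in 1 PRMT1 KD library and 0 in the others.

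For each of the 16 tested genes whose groups did not overlap, the exact permutation p (two-sided) was 0.1, which is the minimum with 20 ways of splitting 6 libraries into 3 and 3. limma's voom on the reads called 5 of the 32 genes, compared with 927 of all 13585 (6.82%), namely ISG15, IFITM1, ISG20 and IFI27 lower and PARP14 higher.

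The levels of the 48 genes in control cells, which had received si-NC, spanned the range from near 0 to well over 100 FPKM. The control mean was under 1 FPKM in 15 genes, 1 to 10 FPKM in 21, 10 to 100 FPKM in 10 and at least 100 FPKM in BST2 and ADAR. Of the receptor, JAK-STAT and adaptor genes, TYK2, STAT2, MAVS and IFNAR1 had control means between 13.0 and 37.0 FPKM, whereas TMEM173 was at 9.18, IRF9 at 1.56 and IFNAR2 at 0.825 FPKM. Strongly inducible effectors were at both ends of the order. MX1, RSAD2, HERC5, IFITM2 and IFI44L had control means under 0.1 FPKM, whereas IFI6 and ISG15 had means of 31.8 and 20.6 FPKM. ISG15 was the 9th highest of the 48 genes in control, next to UBE2L6 at 21.3 FPKM, and in PRMT1 KD its mean of 10.7 FPKM was below the 14.1 FPKM of IFIH1. Genes with an ISRE core stood at both ends of this order, BST2 and IFI44L among them. The order depends on the deposited gene lengths.

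**Figure D5:**
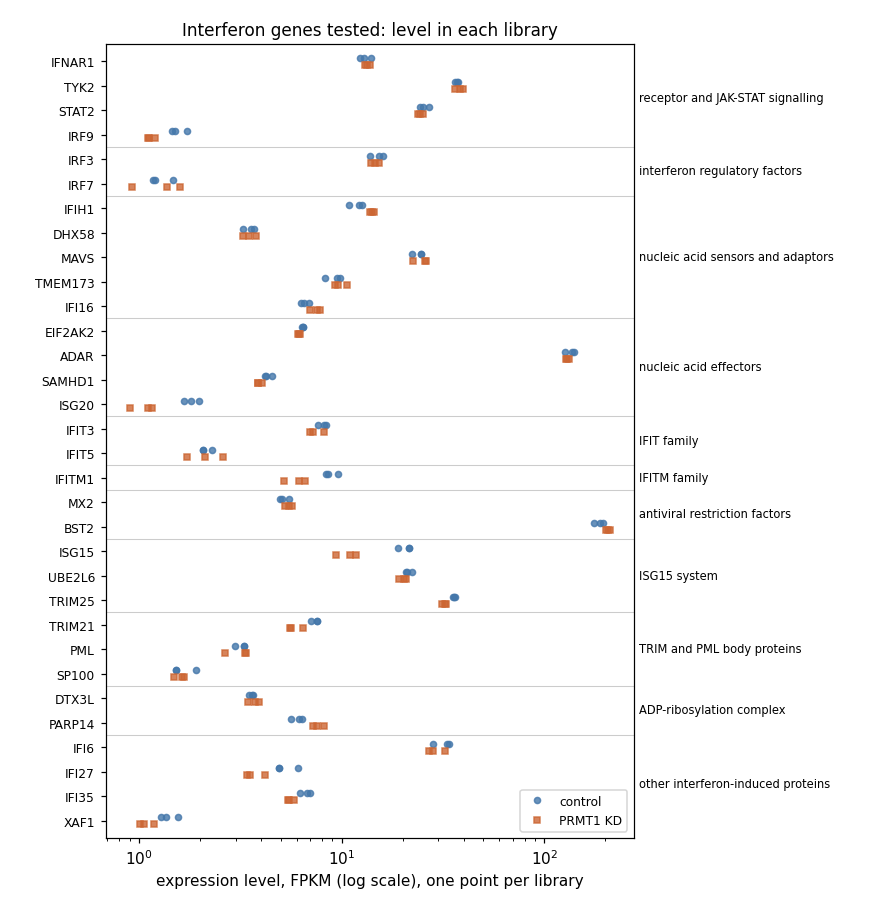
FPKM (x axis, log scale) of the 32 tested genes in each library, control as circles and PRMT1 KD as squares, grouped by role. Points of the same gene lie close together compared with the distance between genes, and BST2 and ADAR lie above 100 FPKM in every library.

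The mean was under 10 reads per library in 6 of the 16 genes that were not tested (IFITM2, IFITM3, MX1, RSAD2, HERC5 and IFI44L), and voom was not run on them. In the other 10, from TRIM22 with a mean of 10 reads to IRF1 with 123.8 reads, voom on the reads gave adjusted p-values of 0.0714 for PARP9 and 0.368 to 0.949 for the other 9.

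A further list of 90 interferon pathway genes was examined for comparison, and 49 of them were tested. IRF5 and PTPN6 were called lower, 0 were called higher, 16 had an unadjusted limma p under 0.05 (10 lower and 6 higher, compared with 19.5% of all genes tested), and the median difference was -0.034 on the log2 scale. The groups did not overlap in 22 of the 49 genes, 13 lower and 9 higher, compared with 25.9% of all genes tested, 12.3% lower and 13.6% higher. IRF5, an interferon regulatory factor active in B lineage and myeloid cells, was 5.56, 5.94 and 5.34 FPKM in control and 3.50, 2.89 and 3.11 FPKM in PRMT1 KD. It fell by 0.67 on the log2 scale (limma adjusted p = 0.0202). Its adjusted p was 0.120 and 0.0937 without control replicate 1 or 2, and 0.0859 and 0.0633 without PRMT1 KD replicate 2 or 3. PTPN6 (SHP-1), a phosphatase that restrains JAK kinases, was 5.91, 6.07 and 5.33 FPKM in control and 3.64, 3.86 and 4.39 FPKM in PRMT1 KD. Its log2 fold change was -0.45 (limma adjusted p = 0.0484), and the adjusted p was 0.0686 to 0.183 when any single library was left out and 0.0705 with the replicate number as a block.

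JAK1, the kinase that works with TYK2 at the receptor, was 32.6 to 33.8 FPKM in control and 29.4 to 30.9 FPKM in PRMT1 KD, with a difference of -0.13 on the log2 scale (limma adjusted p = 0.169). None of the 10 interferon genes examined reached the filter. IFNA1, IFNA2, IFNE, IFNW1 and IFNG are listed at 0 in all 6 libraries, and the highest control mean was 0.303 FPKM, for IFNL2. IFNB1 was at 0 to 0.141 FPKM in control and 0 to 0.229 FPKM in PRMT1 KD.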

How the data were processed

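RNA-seq of 6 MM.1S libraries (3 control, 3 PRMT1 KD) was used, grouped by the sample labels, and the study's m6A sequencing was not analysed. Expression was deposited by the authors as FPKM values, with each gene's length and its coordinates on hg38 (GRCh38), and the submitters' processing notes name featureCounts 1.5.0-p3. The aligner, the annotation release and the strand setting are not given in the sources used here. All 58735 gene rows have the identifiers and coordinates of GENCODE release 29. Multiplication of FPKM by gene length and by a library's own step gave whole read numbers (100% within 0.01), from which reads were worked back, and each library's size over its median-of-ratios size was 1, so the deposited FPKM values already include a scaling between libraries.

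Two-sided tests on log2(FPKM + 1) were made with limma (version 3.58.1, R version 4.3.3), with moderated variances that follow the mean level, in the 13585 genes whose mean over the 6 libraries reached 1 FPKM, and p was adjusted over all of them (Benjamini-Hochberg). The pseudocount of 1 understates the change of low genes. limma's voom was run on the reads as an alternative, and on genes with a mean of at least 10 reads as an alternative chosen after seeing the data. The scripts were tested on simulated reads. The genes, their roles and the comparison list were chosen with earlier results of these data known. The naming rule gives values in every library, fold change and test for genes called changed and then, by unadjusted p up to 20 in all, for genes whose groups do not overlap, and the others by levels, ranges and counts. The text orders genes by role, and also prints values in every library for several genes whose groups overlap. Promoter windows come from RefSeq (GRCh38.p14), matched by symbol, and a gene counts as holding a core if any of its windows does. Depth limits precision. The filter was on FPKM and not on reads, so IRF1, with a mean of 123.8 reads, was not tested. IRF7, with a mean of 54 reads, was tested. Some results on single genes are left out of the text.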

Additional observations from a re-analysis of the deposited data

How the results depend on the processing

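The lower level of ISG15 and IFITM1 kept its direction in all 15 alternatives, as did the differences of the other 14 genes whose groups did not overlap wherever they could be run, but the counts depended on the test. The number of interferon genes called (2) was 0 with no filter on low values (12 had an unadjusted limma p under 0.05), 1 (ISG15) after rescaling to TPM, 1 (ISG15) with empirical Bayes without trend, 5 with voom on the reads and 5 with voom on genes with a mean of at least 10 reads. Leaving out 1 library gave 0 to 1, with 0 without control replicate 1 or without PRMT1 KD replicate 3 (9 and 10 with an unadjusted limma p under 0.05). The median log2 fold change of the interferon genes was -0.078 to -0.024 when 1 library was left out, the lowest being without control replicate 3. Of the comparison list, 2 genes were called, against 0 with no filter (18 unadjusted), 1 without trend, 7 with voom, 7 with voom on genes with at least 10 reads, and 0 to 1 when 1 library was left out (10 to 16 unadjusted). Over all genes, 279 were called, against 35 with no filter, 473 with a mean FPKM of at least 5, 43 without trend, 927 with voom, 918 with voom on genes with at least 10 reads, and 13 to 94 when 1 library was left out. No filter tests more genes and leaving out a library leaves fewer samples. The causes of these shifts and of the others were not tested.

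With the replicate number as a block, 1 gene of the comparison list was called (IRF5; PTPN6 was not), 204 of all genes were called, and ISG15 and IFITM1 were called as before. After subtraction of the group mean, libraries with the same number had correlations across genes of 0.02, 0.0631 and 0.101, not all above 0.1, so the numbers were not taken as pairs, although each library correlated best with its own number.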
